A study of Danio rerio with 12 samples.

Results

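Cardiac sarcomere genes are described here in sorted cells of the embryonic zebrafish heart. The set holds 8 of the 27191 genes counted, chosen by name and found by matching gene identifiers to symbols, and all 8 passed the filter on low counts. They are *myh6* (ENSDARG00000090637), *mybpc3* (ENSDARG00000011615), *myl7* (ENSDARG00000019096) and *cmlc1* (ENSDARG00000032976) of the thick filament, *tnnt2a* (ENSDARG00000020610) and *tnni1b* (ENSDARG00000052708) of the thin filament, the titin gene *ttn.2* (ENSDARG00000028213) and the Z-disc gene *actn2b* (ENSDARG00000071090).

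The cells came from *sqet31Et*, an enhancer trap line in which a transposon with EGFP reports the activity of an unknown neighbouring regulatory region. In this line EGFP marks the atrioventricular canal (AVC), the ring of heart wall between atrium and ventricle. From 72 hours post fertilization (hpf) it also marks the bulbus arteriosus (BA), the smooth muscle outflow chamber of the fish heart, and it is weak in some other myocardium, so the GFP+ gate is not limited to the AVC. The 4 groups were cells with EGFP (GFP+) and cells without it (GFP−) at 48 and at 72 hpf, each with 3 libraries from pools of dissociated hearts. No group carried a mutation or a treatment, all hearts carried the transgene, and the gates were set on hearts of wild type embryos at the same stage. The series' own text calls the replicates biological while the paper calls them technical in 1 place, so the p-values measure the spread between these libraries, which may be technical.

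The sarcomere is the contractile unit of striated muscle. Myosin heads of the thick filament pull on actin of the thin filament when calcium binds troponin, titin spans from the Z-disc to the middle of the unit, and alpha-actinin cross-links the thin filaments at the Z-disc. In the embryonic zebrafish heart these genes are textbook markers of cardiomyocytes, with *myh6* the myosin heavy chain of the atrium and *myh7* that of the ventricle.

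Total counts ran from 20530602 to 62359004 per library, and 24792 to 26528 genes were detected. A library of GFP− cells at 72 hpf, replicate 1, stood apart: its 10 most counted genes took 21.0% of counts against 5.11% to 8.47% elsewhere, and its TMM factor was 0.575 against 0.886 to 1.18. Erythrocyte markers summed to 55506 CPM in it and to 6242 and 5131 CPM in replicates 2 and 3. GFP− replicate 2 at 48 hpf was the highest of its group for 7 of the 8 genes, and was picked out by these levels. Larger differences between the fractions at 48 hpf without it therefore follow in part from that choice. Where leaving out either library ended a call of the 8 genes or moved it by over 1.5 times, the value without it is given. The 8 genes took 0.284% ± 0.0886 of counts in GFP+ and 0.00937% ± 0.00793 in GFP− cells at 48 hpf, and 0.127% ± 0.0264 and 0.0351% ± 0.0142 at 72 hpf (SD, n = 3 each). Levels below are CPM, counts scaled to the size of each library with TMM factors, which correct for differences in RNA composition, and are listed for replicates 1, 2 and 3 in that order.

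The labels name the GFP− cells as the remainder of the heart. At 48 hpf the sarcomere genes, and cardiomyocyte genes outside the sarcomere, were low in it. A list of 11 such genes, among them *nppa* and *pln*, summed to 182 to 337 CPM in GFP− and to 1024 to 1454 CPM in GFP+ cells at 48 hpf, and to 638 to 1276 and 1720 to 2698 CPM at 72 hpf. Most of the GFP− sum at both stages, and of the GFP+ sum at 72 hpf, was *hand2*, which is not limited to cardiomyocytes. By gene, 10 of the 11 were called higher in GFP+ cells at 48 hpf and 7 at 72 hpf, beside 14.4% and 6.06% of all genes. Of the 11, 7 were matched only through the study's own tables, which hold mainly genes called in these samples. These counts are therefore not independent of the outcome. Neuronal markers reached 1623 to 2408 CPM in GFP− cells at 48 hpf against 119 to 174 CPM in GFP+ cells. In bulk samples fewer cardiomyocytes and less RNA per cardiomyocyte cannot be told apart.

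**Figure D1:**
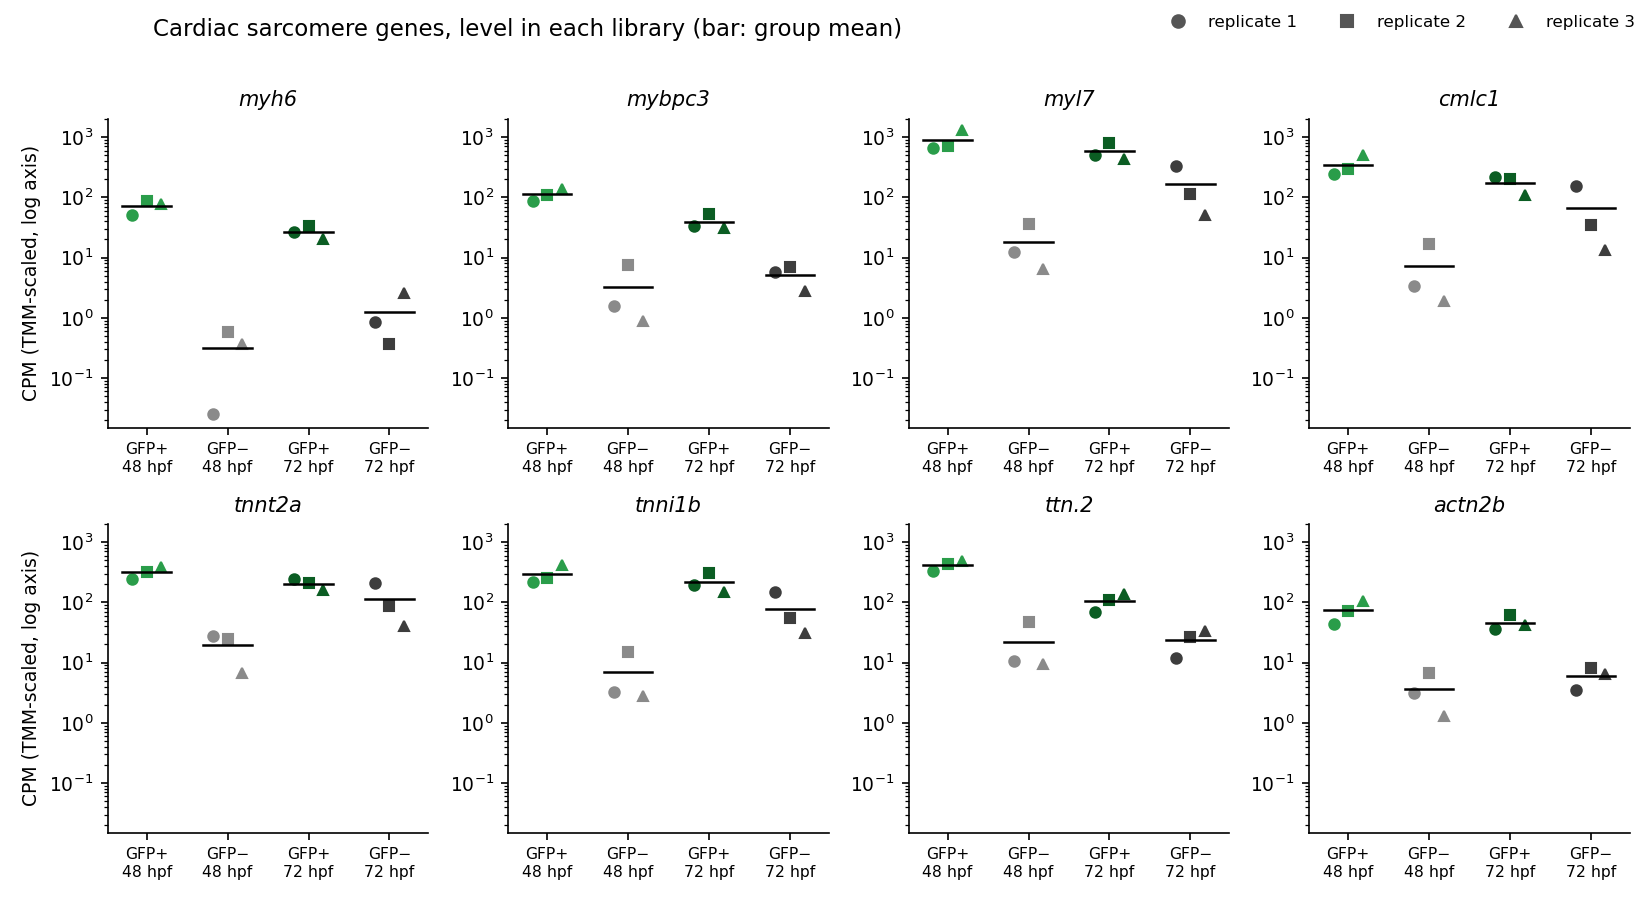
Level of each gene in each of the 12 libraries, in TMM-scaled CPM on a log axis, by fraction and stage, with the symbol giving the replicate and the bar the group mean. At 48 hpf every GFP+ library lies above every GFP− library for all 8 genes, and at 72 hpf *cmlc1* and *tnnt2a* overlap.

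The atrial myosin heavy chain gene *myh6* measured 50.2, 87.5 and 77.8 CPM in GFP+ and 0.0257, 0.576 and 0.362 CPM in GFP− cells at 48 hpf. At 72 hpf it measured 26.9, 32.9 and 20.5 CPM in GFP+ and 0.847, 0.371 and 2.55 CPM in GFP− cells. The fractions did not overlap at either stage, and the lowest GFP− value at 48 hpf rests on 1 count. The gene *mybpc3* encodes cardiac myosin binding protein C, which tethers and regulates myosin heads. It was at 88.3, 110.0 and 138 CPM in GFP+ and 1.59, 7.43 and 0.889 CPM in GFP− cells at 48 hpf, and at 33.4, 52.3 and 31.2 CPM and 5.84, 6.999 and 2.79 CPM at 72 hpf. Here too no GFP− library reached a GFP+ library of its stage.

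The regulatory light chain gene *myl7*, whose promoter is widely used to drive transgenes in zebrafish cardiomyocytes, measured 654, 709 and 1330 CPM in GFP+ and 12.5, 35.9 and 6.59 CPM in GFP− cells at 48 hpf. At 72 hpf the values were 513, 798 and 435 CPM in GFP+ and 330.0, 114 and 51.9 CPM in GFP− cells. The GFP− cells at 72 hpf lay below the GFP+ cells but above all GFP− libraries of 48 hpf. The essential light chain gene *cmlc1* followed at 241, 299 and 498 CPM against 3.37, 16.7 and 1.91 CPM at 48 hpf, and 219, 198 and 109 CPM against 153, 35.2 and 13.5 CPM at 72 hpf. For this gene GFP− replicate 1 at 72 hpf lay within the range of the GFP+ cells. With total counts in place of TMM it lay below that range.

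In the thin filament, *tnnt2a* encodes cardiac troponin T, which anchors the troponin complex to tropomyosin and without which the zebrafish heart does not beat. It was at 240.3, 314 and 387 CPM in GFP+ and 28.1, 25.1 and 6.62 CPM in GFP− cells at 48 hpf, and at 249, 207 and 161 CPM and 212, 88.3 and 40.005 CPM at 72 hpf. The fractions overlapped at 72 hpf through GFP− replicate 1 alone. The troponin I gene *tnni1b*, of the inhibitory subunit, measured 215, 255 and 415 CPM against 3.32, 15.0 and 2.77 CPM at 48 hpf, and 196, 305 and 151 CPM against 147, 54.6 and 30.9 CPM at 72 hpf. The closest approach was 147 CPM in GFP− replicate 1 to 151 CPM in GFP+ replicate 3 at 72 hpf.

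Titin acts as the spring and scaffold of the sarcomere. Its gene *ttn.2* measured 332, 427 and 492 CPM in GFP+ and 10.5, 47.2 and 9.39 CPM in GFP− cells at 48 hpf, and 70.2, 108 and 137 CPM and 12.1, 26.9 and 33.1 CPM at 72 hpf. Both the GFP+ groups and the fractions within a stage were apart, while the GFP− groups overlapped. The alpha-actinin gene *actn2b* was at 44.6, 71.5 and 107 CPM against 3.08, 6.63 and 1.28 CPM at 48 hpf, and at 35.8, 60.6 and 41.9 CPM against 3.56, 8.002 and 6.47 CPM at 72 hpf. The fractions were again apart at both stages, and the stages overlapped in each fraction.

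By group mean, the order was the same for all 8 genes: GFP+ at 48 hpf, GFP+ at 72 hpf, GFP− at 72 hpf and GFP− at 48 hpf. Neighbours in this order often overlapped. GFP+ cells of the 2 stages overlapped for *myl7*, *tnnt2a*, *tnni1b* and *actn2b*, and GFP− cells of the 2 stages for *myh6*, *cmlc1*, *mybpc3*, *ttn.2* and *actn2b*. The spread was wider in GFP− than in GFP+ cells. The SD was 19.2% to 42.1% of the mean over the 8 genes in GFP+ cells at 48 hpf and 58.4% to 111% in GFP− cells at 48 hpf.

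The first comparison asks which sarcomere genes differed between cells with EGFP and the remaining heart cells at 48 hpf. All 8 genes were higher in GFP+ cells and all passed the test (edgeR's quasi-likelihood test, Benjamini-Hochberg over all 23222 genes tested, padj below 0.05), with *myh6* at the upper end and *tnnt2a* at the lower end. Of all genes tested, 14.4% were called higher here. The 8 were also all non-overlapping, which 27.8% of all genes were in this direction. The log2FC of *myh6* was 7.81 ± 0.88 (SE; n = 3 per group here and below), a 224-fold difference, with padj = 0.000136. The light chain genes *myl7* and *cmlc1* were at 5.61 ± 0.82 and 5.56 ± 1.01, *tnni1b* at 5.39 ± 0.80 and *mybpc3* at 5.08 ± 0.72. The genes *actn2b*, *ttn.2* and *tnnt2a* were at 4.34 ± 0.59, 4.22 ± 0.65 and 3.97 ± 0.65. The adjusted p-values of the other 7 lay between 0.000313 and 0.00157. The median of the 8 log2FC was 5.24, beside 0.03 over all genes. Each of the 8 calls held with any 1 library left out. The sizes depended on GFP− replicate 2, without which the differences were larger, at 8.59 for *myh6*, 7.03 for *cmlc1*, 6.59 for *tnni1b*, 6.55 for *myl7*, 6.48 for *mybpc3*, 5.39 for *ttn.2* and 5.08 for *actn2b*. That of *tnnt2a*, at 4.17, moved less.

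Markers of some other tissues differed in the same direction at 48 hpf. Of 14 tested skeletal muscle genes 9 were called higher in GFP+ cells, and their sum was 609 to 1064 CPM against 83.4 to 146 CPM. Of these, *ckma* and *acta1b* held 7718 to 11461 and 7083 to 12061 counts per GFP+ library, and *tnnc2* and *mylz3* 599 to 929 and 506 to 779. The skeletal myosin heavy chain genes of the list had fewer, 3 to 23 for *smyhc1* and 0 to 6 for *myhz1.2*. The counts were 0 to 51 for *myhz1.1* and 18 to 286 for *myhz2*. Of 10 liver genes 8 were called higher, at 517 to 2355 CPM against 17.2 to 52.0 CPM. Of 5 smooth muscle genes 3 were called higher and of 5 epicardial genes 4. Other lists went the other way, with 4 of 4 erythrocyte, 4 of 5 eye and 3 of 3 neuronal genes called lower in GFP+ cells. No endocardial, endothelial or leukocyte gene was called. The part of these lists in the result was not tested.

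**Figure D2:**
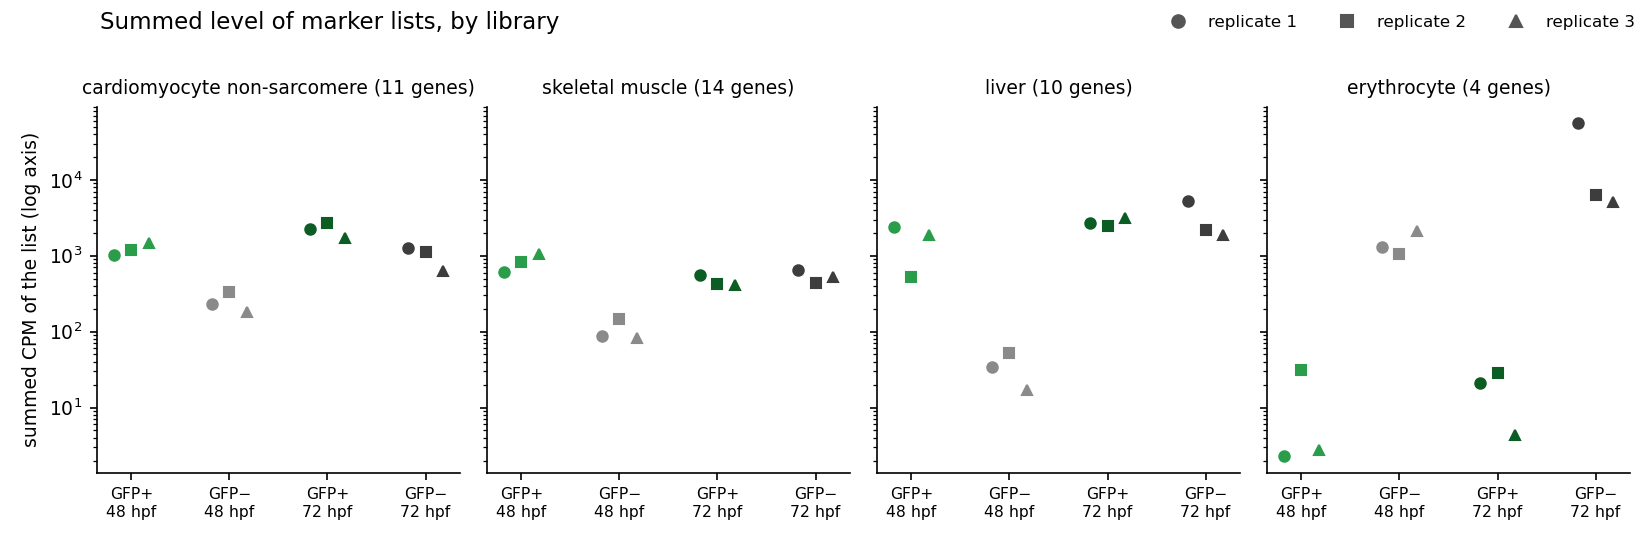
Summed TMM-scaled CPM of 4 marker lists in each library on a log axis, by fraction and stage, with the symbol giving the replicate. The skeletal muscle and liver lists are higher in GFP+ cells at 48 hpf and overlap between the fractions at 72 hpf, and the erythrocyte list peaks at 55506 CPM in GFP− replicate 1 at 72 hpf.

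At 72 hpf the same question gave a split set. The genes *myh6*, *mybpc3*, *actn2b* and *ttn.2* were higher in GFP+ cells, and the light chains and troponins did not pass the test. The log2FC was 4.40 ± 0.75 (padj = 0.00173) for *myh6*, 2.92 ± 0.55 (0.00311) for *actn2b*, 2.90 ± 0.65 (0.00868) for *mybpc3* and 2.12 ± 0.59 (0.027) for *ttn.2*. For *myl7* it was 1.82 ± 0.69 (0.0942), for *tnni1b* 1.49 ± 0.67 (0.158), for *cmlc1* 1.38 ± 0.85 (0.287) and for *tnnt2a* 0.86 ± 0.58 (0.331). The 4 of 8 called stand beside 6.06% of all genes called higher, and the 6 of 8 not overlapping beside 16.1%. The median of the 8 was 1.97, beside -0.02 over all genes.

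This split turned on GFP− replicate 1. Without that library all 8 genes passed, with *cmlc1* at 2.87 (padj = 0.028), *myl7* at 2.83 (0.00886), *tnni1b* at 2.36 (0.0241) and *tnnt2a* at 1.70 (0.0399). Over all genes that fit called 1701 of 23839 higher, beside 1408 of 23222 in the reported fit. The call of *ttn.2* was lost without GFP+ replicate 2 (0.0706) or 3 (0.0822), without GFP− replicate 2 (0.0575), or with total counts instead of TMM (0.0868). With total counts *myl7* passed (0.0379). The difference of *myh6* was 5.63 without GFP− replicate 3. As a list, skeletal muscle genes did not follow the 8 genes at 72 hpf. Of 14 tested, 1 was called higher and 4 lower, and the list summed to 407 to 560 CPM in GFP+ and 443 to 640 CPM in GFP− cells. Its members differed: scaled to library size, *ckma* and *acta1b* were still higher in GFP+ cells without overlap, and *acta1a* was lower without overlap. None of the 10 liver genes was called at 72 hpf. In the smooth muscle list 3 of 5 genes were called higher, the direction of the 8 genes, with a median log2FC of 2.15. The list summed to 6114 to 7648 CPM in GFP+ and 1446 to 3094 CPM in GFP− cells. Most of the GFP+ sum was *fbln5*, at 322459, 298472 and 106470 counts, against 2965, 16786 and 6891 in GFP− cells. Scaled to library size, *fbln5*, *elnb* and *mylka* were higher without overlap, and *acta2* and *tagln* overlapped between the fractions. Of 5 epicardial genes 2 were called higher, with a median of 1.75 and sums of 221 to 404 CPM against 146 to 201 CPM. One of them, *tbx18*, which the paper also counts among pacemaker transcription factors, had 6575, 6047 and 1794 counts against 56, 430 and 205. Without it the sums overlapped. Scaled to library size, *tbx18*, *wt1a* and *wt1b* were higher without overlap, and *tcf21* and *aldh1a2* overlapped. The part of these lists in the result was not tested.

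**Figure D3:**
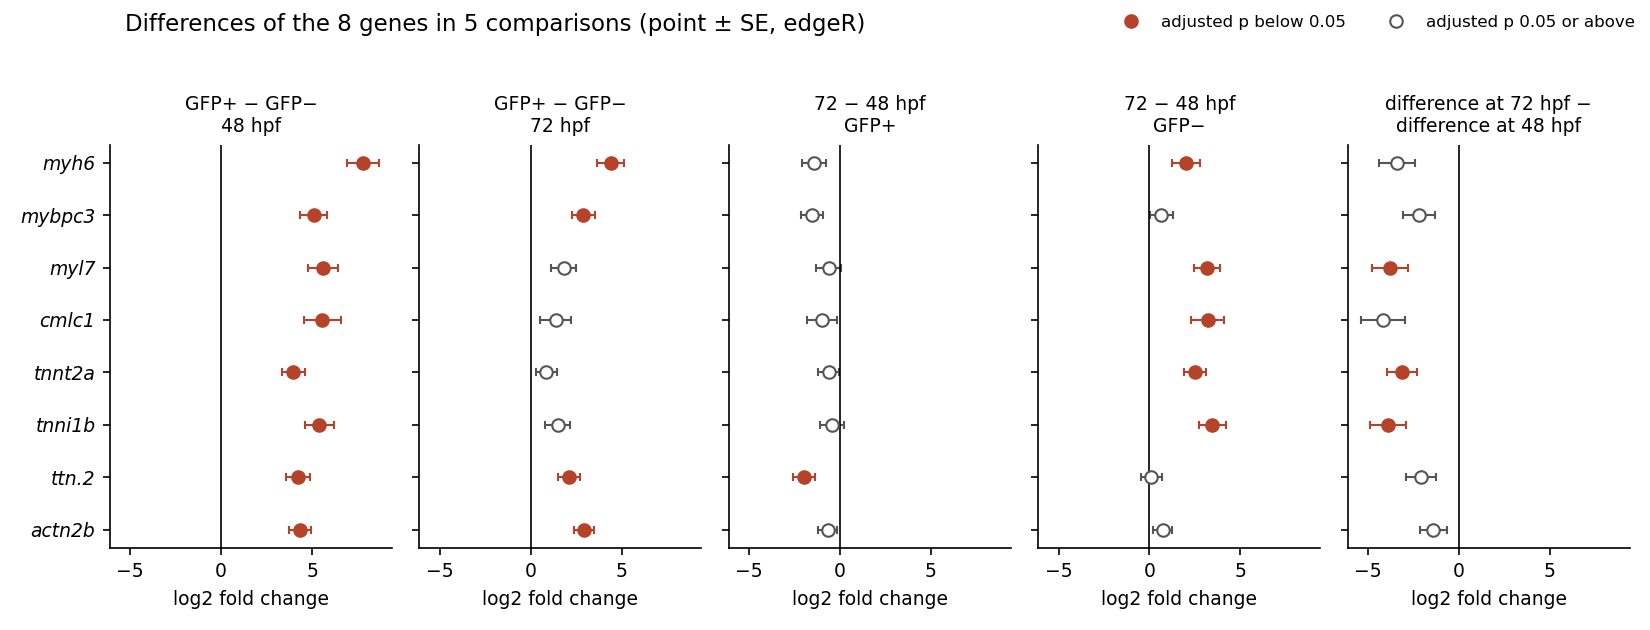
Estimated log2 fold change (point) and SE (bar) of the 8 genes in the 5 comparisons, filled where the adjusted p was below 0.05. All 8 genes are filled at 48 hpf, 4 at 72 hpf, 1 for stage in GFP+ cells, 5 for stage in GFP− cells and 3 for the change of the difference.

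Within GFP+ cells, the comparison of stages asks how these genes changed from 48 to 72 hpf. Only *ttn.2* passed the test, and it was lower at 72 hpf by a log2FC of -1.99 ± 0.59 (padj = 0.0292). The thick filament genes *mybpc3* and *myh6* had log2FC of -1.52 ± 0.61 (padj = 0.0943) and -1.42 ± 0.64 (padj = 0.132). The log2FC was -0.98 ± 0.84 for *cmlc1*, -0.69 ± 0.51 for *actn2b*, -0.62 ± 0.67 for *myl7*, -0.61 ± 0.57 for *tnnt2a* and -0.44 ± 0.66 for *tnni1b*, none of them called. Of all genes 11.3% were called lower, beside 1 of the 8, and 24.9% were lower without overlap, beside 4 of the 8, *ttn.2*, *myh6*, *mybpc3* and *cmlc1*. The median of the 8 was -0.84, beside -0.02 over all genes. With the replicate number as a block *mybpc3* passed as well (padj = 0.0378), which gave 2 of 8.

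The call of *ttn.2* in GFP+ cells did not survive the loss of single libraries. It was lost without GFP+ replicate 2 or 3 at 48 hpf (padj = 0.0671 and 0.079) and without GFP+ replicate 1, 2 or 3 at 72 hpf (0.0996, 0.0924 and 0.0516). For *mybpc3* the call was gained without GFP− replicate 2 or 3 at 48 hpf (0.0181 and 0.046). The median of all genes in this comparison moved from -0.02 to -0.32 when libraries were scaled by total counts, and the share of higher among called genes from 50% to 32.8%. Smooth muscle markers, measured in the same libraries, summed to 113 to 137 CPM at 48 hpf and 6114 to 7648 CPM at 72 hpf in GFP+ cells, with 5 of 5 called higher. Of 14 skeletal muscle genes 5 were called lower, with a median log2FC of -1.40. Their part in the result was not tested.

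Within GFP− cells the light chain and troponin genes were higher at 72 hpf. The log2FC was 3.46 ± 0.73 (padj = 0.00261) for *tnni1b*, 3.20 ± 0.91 (0.0125) for *cmlc1*, 3.17 ± 0.73 (0.00417) for *myl7* and 2.51 ± 0.61 (0.0055) for *tnnt2a*. The gene *myh6* was at 1.98 ± 0.77 (0.0493), and its adjusted p was 0.0571 with the replicate block, 0.0526 with no filter, 0.101 with total counts and 0.136 in a fit of those 2 groups alone. The genes *actn2b*, *mybpc3* and *ttn.2* were not called, with 0.72 ± 0.52, 0.65 ± 0.62 and 0.11 ± 0.57. Thus 5 of 8 were called higher beside 25.9% of all genes, and *myl7*, *tnnt2a* and *tnni1b* were higher without overlap, 3 of 8 beside 27.1%. The median of the 8 was 2.25, beside 0.14 over all genes, and the latter was -0.10 with total counts.

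The calls of *tnni1b*, *myl7* and *tnnt2a* in GFP− cells held with any 1 library left out, although their sizes moved. Without GFP− replicate 1 at 72 hpf they were 2.59, 2.161 and 1.66, and without GFP− replicate 2 at 48 hpf *tnni1b* was at 4.65, *myl7* at 4.09, *cmlc1* at 4.65 and *myh6* at 2.76. That of *cmlc1* was lost without this library (1.72, padj = 0.0702) or without GFP− replicate 1 at 48 hpf (2.84, padj = 0.0521). That of *myh6* was kept in 3 of 12 such fits, and without GFP− replicate 3 at 72 hpf its log2FC was 0.76 (padj = 0.427). Without GFP− replicate 2 at 48 hpf all 8 genes passed, with *mybpc3* at 2.05 (padj = 0.0076), *actn2b* at 1.46 (0.0448) and *ttn.2* at 1.27 (0.0431). Over all genes that fit called 4996 of 23852 higher, beside 6014 of 23222 in the reported fit. The *ttn.2* difference changed sign without GFP− replicate 1 or 3 at 48 hpf (-0.24 and -0.26), without GFP− replicate 3 at 72 hpf (-0.19) and with total counts (-0.0614). Of the marker lists, smooth muscle had the largest median change with stage in GFP− cells, with 5 of 5 genes higher, a median log2FC of 9.40 and sums of 20.8 to 35.1 CPM at 48 hpf and 1446 to 3094 CPM at 72 hpf. Of 14 skeletal muscle genes 8 were higher at 72 hpf, as were 9 of 10 liver genes and 7 of 11 cardiomyocyte genes outside the sarcomere. So were 3 of 5 epicardial, 2 of 3 leukocyte and all 4 erythrocyte genes. Of 3 neuronal genes 2 were lower, with sums of 1623 to 2408 CPM at 48 hpf and 252 to 593 CPM at 72 hpf. Of 5 eye genes 2 were higher and 1 lower, and no endocardial or endothelial gene was called. The part of these lists in the result was not tested.

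The interaction term tests whether the GFP+ to GFP− difference itself changed between the stages. It was negative, meaning a smaller difference at 72 hpf, for all 8 genes, and passed the test for the troponin genes and *myl7*. The value was -3.90 ± 0.97 (padj = 0.0289) for *tnni1b*, -3.79 ± 0.98 (0.0342) for *myl7* and -3.12 ± 0.83 (0.0386) for *tnnt2a*. It was -4.18 ± 1.23 (0.0567) for *cmlc1*, -3.41 ± 1.00 (0.0573) for *myh6*, -2.18 ± 0.87 (0.145) for *mybpc3*, -2.10 ± 0.81 (0.131) for *ttn.2* and -1.41 ± 0.73 (0.247) for *actn2b*. The 3 of 8 called stand beside 5.55% of all genes called lower, and the median of the 8 was -3.26 beside -0.10. Where total counts replaced TMM, the share of higher among called genes went from 30.3% to 14.7%.

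These interaction calls were fragile. That of *tnni1b* was lost without GFP+ replicate 3, or GFP− replicate 1 or 3, at 48 hpf and without GFP+ replicate 1, 2 or 3 at 72 hpf (padj = 0.0537 to 0.076). That of *myl7* was lost in the same fits and without GFP+ replicate 1 at 48 hpf (0.0555 to 0.0916). That of *tnnt2a* was kept in 2 fits only, those without GFP− replicate 1 or 3 at 72 hpf, and reached 0.0567 to 0.0955 in the other 10. Without GFP− replicate 2 at 48 hpf 5 genes were called, *tnni1b*, *myl7*, *cmlc1*, *mybpc3* and *ttn.2*, with *tnni1b* at -5.09 and *myl7* at -4.72. Over all genes that fit called 949 of 23852 lower, beside 1288 of 23222 in the reported fit. Without GFP− replicate 1 at 72 hpf *tnni1b* was at -3.03, *myl7* at -2.78 and *tnnt2a* at -2.27. Marker lists of other tissues, except smooth muscle, had negative median interactions in the same fit. Of 14 skeletal muscle genes 9 were called lower, with a median of -4.22, and of 10 liver genes 8, with a median of -5.33. Of 11 cardiomyocyte genes outside the sarcomere 3 were called lower, with a median of -1.84. Of 5 smooth muscle genes 1 was called higher and 2 lower, with a median of 1.52. The part of these lists in the result was not tested.

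The genes also differed in how they moved relative to one another. The log2 ratio of a gene's counts to those of *myl7* in the same library is free of library scaling. It was close to constant for *tnni1b* in GFP+ cells, at -1.59 ± 0.10 at 48 hpf and -1.44 ± 0.08 at 72 hpf (SD, n = 3). For *mybpc3* it was -2.95 ± 0.29 and -3.89 ± 0.08 in GFP+ cells of the 2 stages, and for *ttn.2* -1.05 ± 0.36 and -2.47 ± 0.70. For *myh6* it was -3.61 ± 0.55 and -4.42 ± 0.17. All of these were lower relative to *myl7* at 72 hpf with no overlap. For *actn2b* it was -3.61 ± 0.28 and -3.64 ± 0.24, a difference within the spread. The ratio of *tnnt2a* was higher in GFP− than in GFP+ cells, at 0.22 ± 0.86 against -1.47 ± 0.30 at 48 hpf and -0.46 ± 0.15 against -1.48 ± 0.45 at 72 hpf, with no overlap at either stage.

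GFP− replicate 1 at 72 hpf broke this pattern within its group. It had the highest CPM of the group for *myl7*, *cmlc1*, *tnnt2a* and *tnni1b*, and the lowest for *ttn.2* and *actn2b*. Its log2 ratio to *myl7* was -4.77 for *ttn.2*, against -2.08 and -0.65 in replicates 2 and 3. The ratio was -6.53 against -3.82 and -3.00 for *actn2b*, and -5.82 against -4.02 and -4.21 for *mybpc3*. For *cmlc1*, *tnnt2a* and *tnni1b* it was -1.11, -0.64 and -1.17, less than 1 on the log2 scale from the other libraries of the group. The same library had the highest erythrocyte sum and the lowest total count. Its liver markers summed to 5295 CPM, against 2180 and 1892 CPM in replicates 2 and 3. Markers of endocardium and endothelium summed to 591 CPM, against 2314 and 1440 CPM. The part of these in the ratios was not tested.

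**Figure D4:**
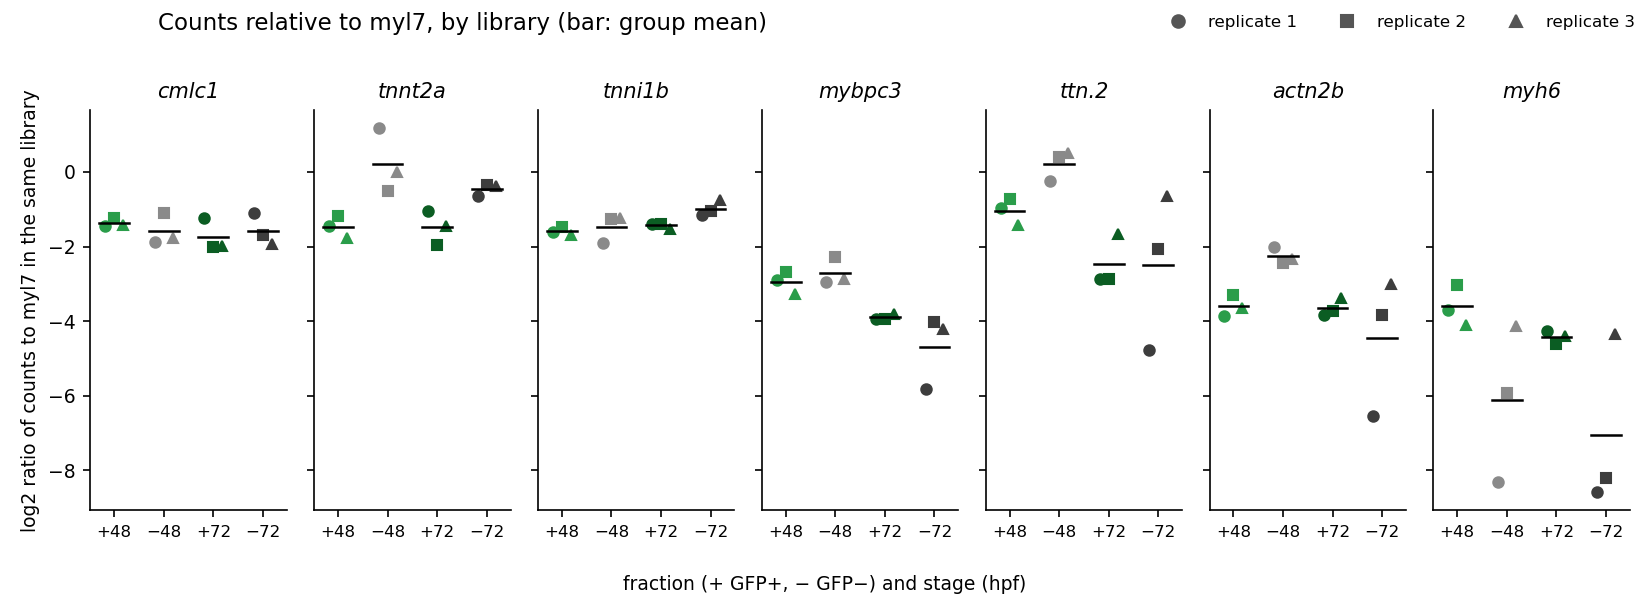
Log2 ratio of the counts of 7 genes to those of *myl7* in the same library, by fraction and stage, with the symbol giving the replicate and the bar the group mean. In GFP− cells at 72 hpf, replicate 1 lies lowest for *mybpc3*, *ttn.2* and *actn2b*, and by less for *myh6*, *tnnt2a* and *tnni1b*. For *myh6* it lies near replicate 2, and replicate 3 is higher. The *tnnt2a* ratio is higher in GFP− than in GFP+ cells at both stages.

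The atrial to ventricular myosin ratio was compared within libraries. The log2 ratio of *myh6* to *myh7* was -4.45 ± 0.17 in GFP+ and -7.70 ± 1.73 in GFP− cells at 48 hpf, and -3.46 ± 0.64 and -5.50 ± 1.67 at 72 hpf. Its 3 values in GFP− cells at 72 hpf, -4.86, -7.39 and -4.25, were wide apart, and the value of -9.19 in GFP− replicate 1 at 48 hpf rests on 1 count of *myh6*. Myosin heavy chain genes are near-identical in parts, and reads could be split between them in counting. The same holds for the titin copies, where the log2 ratio of *ttn.2* to *ttn.1* was 1.05 ± 0.03 and 1.02 ± 0.13 in GFP+ cells of the 2 stages and 1.34 ± 0.48 and 0.66 ± 0.25 in GFP− cells.

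Across the 12 libraries the pairwise Pearson r of log2 CPM ran from 0.731 to 0.993 over 28 pairs, with a median of 0.905. The highest was between *myl7* and *tnni1b* and the lowest between *tnnt2a* and *ttn.2*. The libraries share 4 groups, so these values describe the groups as much as the genes. Among 11285 other genes whose log2 CPM averaged 3 or more, those most like the mean of the 8 were *tnnc1a* (r = 0.993), the cardiac troponin C gene, *casq2* (0.989), of the calsequestrin that stores calcium in the sarcoplasmic reticulum, the aldolase gene *aldoab* (0.984), *nppa* (0.983), of atrial natriuretic peptide, and *csrp3* (0.982), of muscle LIM protein.

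Other genes of the sarcomere were read from a list of 45, of which 40 were matched and all 40 tested. Of these, 21 were matched only through the study's own tables, which hold mainly genes called in these samples, so their counts are not independent of the outcome. At 48 hpf 36 were called higher and 1, *tmod4*, lower, beside 14.4% and 14.3% of all genes, with a median log2FC of 3.62 (0.03 over all genes). The call of *tmod4* was lost without GFP+ replicate 2 or 3, or GFP− replicate 2 or 3, of that stage. The cardiac troponin C gene *tnnc1a* was at 5.34 ± 0.65, the ventricular heavy chain genes *myh7l* and *myh7* at 5.01 ± 0.93 and 4.55 ± 0.80, *csrp3* at 4.95 ± 0.59 and the small heat shock protein gene *hspb7* at 4.50 ± 0.50. The cardiac actin gene *actc1a* was at 4.49 ± 0.63 and *ttn.1* at 4.23 ± 0.72. All of these passed, and held with any 1 library left out. Without GFP− replicate 2 at 48 hpf *myh7l* was at 7.19, *tnnc1a* at 6.20, *myh7* at 6.18, *ttn.1* at 5.88, *hspb7* at 5.33 and *actc1a* at 5.19. The tropomyosin genes *tpm1* and *tpm2* were at 0.44 ± 0.31 and 0.21 ± 0.31 and did not pass, whereas *tpm4a*, the tropomyosin gene of the zebrafish heart, did at 2.23 ± 0.30.

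At 72 hpf 22 of the 40 were called higher and 2, *tcap* and *tmod4*, lower, beside 6.06% and 10.6% of all genes, with a median of 1.73 (-0.02 over all genes), and without GFP+ replicate 2 the count higher was 12. Of the thick filament 4 of 5 were called higher and of the thin filament 5 of 12. The gene *smyd1b*, of a methyltransferase needed for myosin assembly, was at 2.52 ± 0.34, *hspb7* at 2.55 ± 0.45, *csrp3* at 2.27 ± 0.52 and *synpo2lb*, of a Z-disc protein, at 2.85 ± 0.46. These 4 calls held with any 1 library left out. Those of *myh7l* (3.14 ± 0.85), *myh7* (2.72 ± 0.73) and *tnnc1a* (2.164 ± 0.564) were kept in 8 of 12 such fits each, and that of *myh7* was lost with total counts (padj = 0.0512). The myosin chaperone gene *unc45b* was at 1.26 ± 0.33 and kept its call in 10 of 12, and lost it with total counts (padj = 0.168). Not called were *ttn.1* at 1.80 ± 0.65 (padj = 0.0334 with the replicate block), *actc1a* at 1.22 ± 0.55, *tpm4a* at 0.82 ± 0.28 (0.0467 with the block), *tpm2* at -0.14 ± 0.31, *nexn*, of a Z-disc actin-binding protein, at -0.44 ± 0.38 and *tpm1* at -0.76 ± 0.31.

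The telethonin gene *tcap*, whose product caps titin at the Z-disc, changed side. It measured 6.18, 2.61 and 7.33 CPM in GFP+ and 0.257, 0.384 and 0.659 CPM in GFP− cells at 48 hpf, and 2.93, 3.55 and 3.48 CPM in GFP+ and 27.2, 7.11 and 6.67 CPM in GFP− cells at 72 hpf. The fractions were apart at both stages in opposite directions, with a log2FC of 3.64 ± 0.64 and -2.03 ± 0.57. The call at 72 hpf (padj = 0.0281) was 0.052 with the replicate block and was lost without GFP− replicate 1 (log2FC -1.03) or any 1 GFP+ library of that stage.

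With stage, GFP+ cells had 4 of the 40 genes higher and 12 lower, beside 11.3% of all genes in each direction, with a median of -0.67 (-0.02 over all genes). The share higher, 4 of 40, is near that background. With total counts the 4 became 2. The 4 were the thin filament genes *tpm1* (3.66 ± 0.34), *tpm2* (1.82 ± 0.32), *tpm4a* (1.03 ± 0.29, kept in 8 of 12 fits with 1 library left out and lost with total counts) and *tnnt2c*. The genes *smyd1b* and *hspb7* were at 0.81 ± 0.32 and 0.19 ± 0.43 and not called. Of the thick filament 4 of 5 were lower, *myh7* at -2.40 ± 0.72 among them, and *ttn.1* was lower at -1.99 ± 0.65, close to *ttn.2*. The fall was lost for *myh7* in 5 of 12 fits with 1 library left out, all of them GFP+ libraries, and for *ttn.1* in 7 of 12 and with total counts (padj = 0.0555). The gene *myh7l* was at -2.02 ± 0.81 and not called, and passed with the replicate block (padj = 0.0359), with DESeq2's Wald test (0.0289), in a fit of those 2 groups alone (0.00134) and without GFP− replicate 2 or 3 at 48 hpf (0.00811 and 0.045). Without GFP+ replicate 2 or 3 at 48 hpf 4 of the 40 genes were lower, and without any 1 GFP+ library of 72 hpf 5 were.

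In GFP− cells 20 of the 40 were higher at 72 hpf and none lower by edgeR's test, beside 25.9% and 22.1% of all genes, with a median of 1.04 (0.14 over all genes). Of the thin filament 9 of 12 were higher, among them *tpm1* at 4.86 ± 0.36, *actc1a* at 2.66 ± 0.58, *tpm4a* at 2.44 ± 0.30 and *tpm2* at 2.17 ± 0.32. Outside it, *hspb7* was higher at 2.14 ± 0.45 and *tcap* at 4.97 ± 0.67 (3.98 without GFP− replicate 1 at 72 hpf). Of the thick filament 1 of 5 was higher, *mybphb*, and *myh7* was at -0.57 ± 0.69, *myh7l* at -0.15 ± 0.78, *ttn.1* at 0.45 ± 0.64 and *unc45b* at 0.26 ± 0.33, none of them called. The interaction was negative for all 40 and called for 11, beside 5.55% of all genes, with 3 called without GFP− replicate 1 at 48 hpf or GFP+ replicate 3 at 72 hpf and 21 without GFP− replicate 2 at 48 hpf. The median was -1.84, beside -0.10 over all genes. The largest was *tcap* at -5.66 ± 0.85, which stayed called with any 1 library left out and was -4.67 without GFP− replicate 1 at 72 hpf. The smallest of the named genes, *tpm2* at -0.35 ± 0.43, *synpo2lb* at -0.84 ± 0.61, *unc45b* at -0.99 ± 0.46, *smyd1b* at -1.13 ± 0.46 and *tpm1* at -1.20 ± 0.44, were not called.

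**Figure D5:**
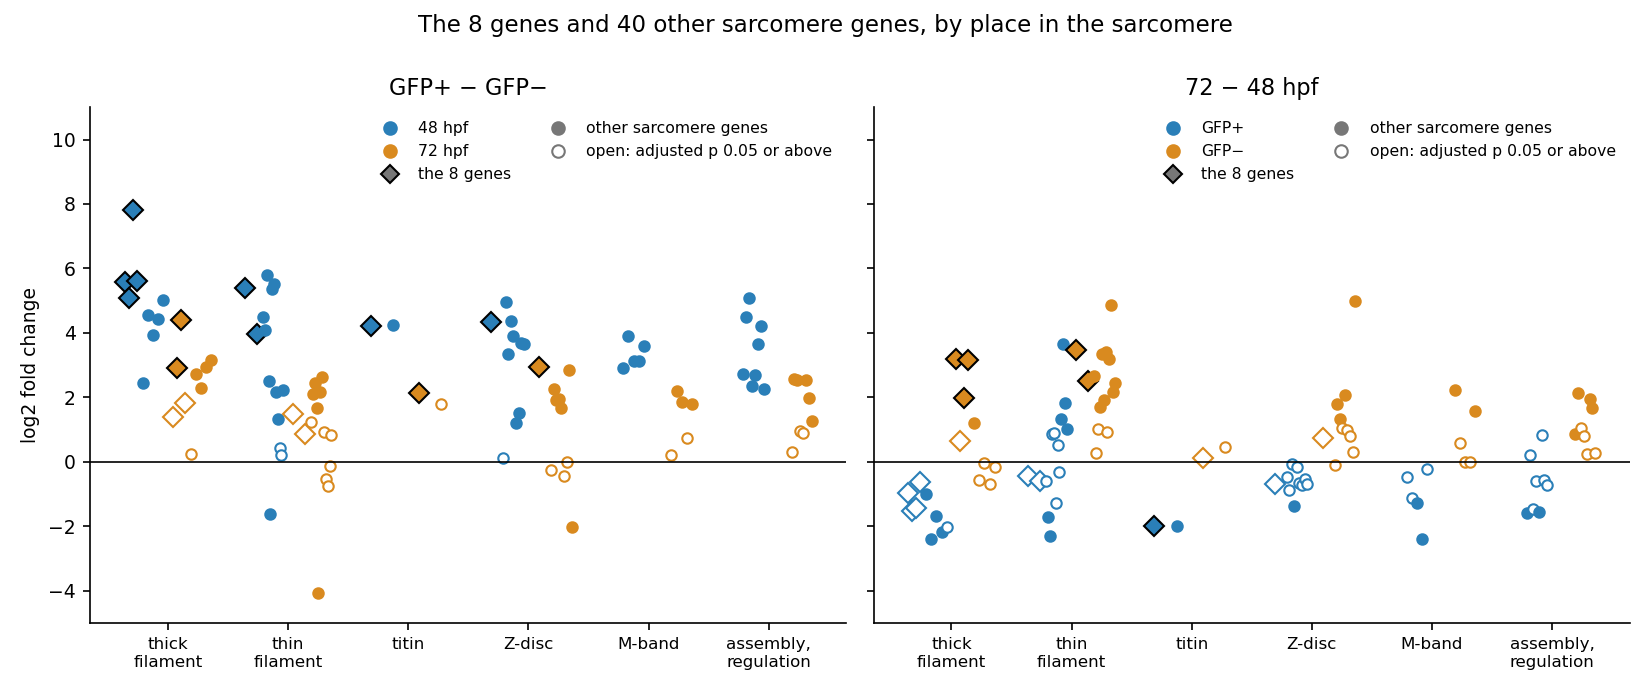
Log2 fold change of the 8 genes (diamonds) and 40 other sarcomere genes (circles) by place in the sarcomere, between fractions at each stage on the left and between stages in each fraction on the right, filled where the adjusted p was below 0.05. At 48 hpf nearly all lie above 0, and with stage in GFP− cells 9 of 12 other genes of the thin filament and 1 of 5 of the thick filament are filled above 0, as are both troponin genes and 3 of the 4 thick filament genes of the set. The difference between these places was not tested.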

How the data were processed

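RNA of sorted heart cells was made into full-length cDNA with SMART-Seq v4 and libraries with Nextera XT, a kit pair that does not mark strand. The authors demultiplexed with bcl2fastq 2.16.0.10, trimmed with cutadapt 1.17 and assigned reads to GRCz11 with Salmon 0.9.1, per the submitters' processing notes, which also list R 3.5.2 and DESeq2 1.29.13. They deposited whole-number counts per Ensembl gene and library without normalization. How Salmon's estimates were summed to genes is not given in the sources used here, and reads shared by near-identical genes could be split between them. Of 27191 identifiers 25441 are in the gene name table, and 3 of the 8 genes were matched by it and 5 by the study's tables. Of the marker lists, the study's tables matched 7 cardiomyocyte, 5 skeletal muscle, 2 liver, 2 smooth muscle and 2 epicardial genes. All 66 library pairs differed in their counts.

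Counts were filtered with filterByExpr (23222 genes kept), scaled by TMM and tested with edgeR 4.0.16 (limma 3.58.1, R 4.3.3) by glmQLFTest. The 4 groups shared 1 fit, p-values were adjusted by Benjamini-Hochberg over all genes tested, and a call needed padj below 0.05 and no limit on log2FC. The study used DESeq2, which was run as an alternative (1.42.0). SE is the log2FC divided by the root of F. Ratios used a prior count of 0.5 (alternative 2). Python 3.11.15, pandas 2.3.3, numpy 2.4.6 and matplotlib 3.10.9 were used for tables and figures. The script was checked on simulated counts. The SE follows the spread between libraries as well as the counts, and intervals beyond it were not computed.

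The members, gene lists and tests were chosen with earlier results of these data known. Named genes were the 8 members; in each comparison the 5 largest and 3 smallest log2FC of the other sarcomere genes whose log2 CPM averaged 3 or more (20 genes); 6 genes by name (*myh7*, *tnnc1a*, *actc1a*, *tpm4a*, *ttn.1*, *tcap*); and the 5 most correlated genes. The names *tmod4*, *tnnt2c* and *mybphb*, and the marker genes, were added after their values were seen. The pairing comes from the replicate numbers of the labels and from the methods, where a replicate spans the fractions of both stages. Same-numbered libraries of the fractions had deviations from their group means that correlated at 0.0819, 0.265 and 0.132 at 48 hpf and 0.29, -0.0889 and 0.294 at 72 hpf. Between the stages they correlated at 0.000525, 0.0334 and -0.0737 in GFP+ and 0.0733, 0.227 and 0.00604 in GFP− cells. The replicate block was set within each stage for the fraction comparisons. It was shared by both stages for the stage and interaction comparisons. Alternatives were size factors and the Wald test of DESeq2, total counts, no filter, a minimum of 10 counts in every library of some group, the replicate number as a block, fits restricted to the groups being compared, leaving out each library and, added after seeing the data, leaving out both libraries that stood apart. Levels were not compared between genes because gene lengths were not used here, and promoter motifs and sequences were not analysed here.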

Additional observations from a re-analysis of the deposited data

Results flagged for a closer look

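By the test of the interaction, the fractions differed by another amount at 72 than at 48 hpf for 3 of the 8 genes and 5 of the other named sarcomere genes, each with a smaller or reversed difference at 72 hpf. Of all genes tested 5.55% were called lower for the interaction, and of all 40 other sarcomere genes 11 were. The named genes were partly picked by their log2FC, for the interaction too, so their count is not a share of the list. The interaction was -3.79 for *myl7*, -3.12 for *tnnt2a* and -3.90 for *tnni1b*. It was -3.27 for *actc1a*, -2.68 for *csrp3*, -3.18 for *tnnc1a* and -1.41 for *tpm4a* (edgeR, adjusted p below 0.05). With 1 library left out, the calls of *actc1a* and *tnnc1a* were kept in 6 of 12 fits each, that of *csrp3* in 4 and that of *tpm4a* in 2. Without GFP− replicate 2 at 48 hpf *tnnc1a* was at -4.02 and *actc1a* at -3.96, and without GFP− replicate 1 at 72 hpf *tnnc1a* was at -2.59. With total counts *csrp3* (adjusted p = 0.0522) and *tpm4a* (0.0511) were not called, and with the replicate block *tpm4a* was not (0.054). For *tcap* the interaction was -5.66, with GFP+ above GFP− cells at 48 hpf and below them at 72 hpf. The interaction uses all 4 groups, and the calls of *tnni1b*, *myl7*, *tnnt2a* and *actc1a* were also lost without single GFP+ libraries. The 2 libraries that stood apart are of GFP− cells. That of 48 hpf was picked out by its levels of the 8 genes, so more negative interactions without it follow in part from that choice. Without both libraries 7 of the 8 genes were called, and *tnnt2a* was not (-2.45, adjusted p = 0.0501). In that fit 1702 of all 23758 genes tested were called lower. Of the marker lists of other tissues, skeletal muscle and liver changed in the same direction, with 9 of 14 and 8 of 10 genes called lower. The smooth muscle list had a positive median of 1.52, with 1 of 5 genes called higher and 2 lower. The part of these lists in the results was not tested.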

How the results depend on the processing

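The 8 calls at 48 hpf kept their direction and their side of the threshold in every alternative run. For the 8 genes 704 of 792 alternative values kept both, 48 lost the threshold, 36 passed it and 4 changed sign. For the other named genes these numbers were 1329 of 1485, 88, 56 and 12. The 32 levels and 36 ratios moved by less than 1 SD, but with total counts *cmlc1* and *tnnt2a* no longer overlapped between the fractions at 72 hpf. Of the 8 genes, those called lower at 72 hpf in GFP+ cells numbered 1 in the reported fit and 2 with DESeq2's Wald test. They numbered 2 with the replicate block and 4 in a fit of the 2 groups alone. Over all genes tested these fits called 2618 of 23222, 3635 of 25474, 2732 of 23222 and 3922 of 21744 lower. Those of the 8 called for the interaction numbered 3 in the reported fit and 5 with DESeq2's Wald test. Over all genes 1288 of 23222 and 2426 of 24947 were called lower there. The replicate block changed the calls of *mybpc3* in GFP+ and *myh6* in GFP− cells between stages and no other call of the 8 genes. Of the other genes it changed the calls of *tcap*, *tpm4a* and *ttn.1* at 72 hpf, *myh7l*, *mybphb* and *lrrc10* by stage in GFP+, *tnni4a* by stage in GFP− and *tpm4a* and *hspb7* for the interaction. Of the other 40 genes, those called lower at 72 than at 48 hpf in GFP+ cells rose from 12 to 19 in a fit of those 2 groups, and those higher fell from 4 to 2 with total counts. Those lower in GFP+ than in GFP− cells at 72 hpf went from 2 to 1 with the replicate block or the 2 groups alone. Those called for the interaction went from 11 to 7 with total counts and 24 with DESeq2's Wald test. Over all genes, total counts took those higher by stage in GFP+ cells from 2614 to 1274 and those called lower for the interaction from 1288 to 973. Those lower in GFP+ cells at 72 hpf numbered 2465 of 23222, 2409 of 23222 with the block and 1595 of 21986 in the 2 groups alone. Leaving out both libraries that stood apart was a setting chosen after seeing the data, in part from the levels of the 8 genes. In it the 8 genes gave 8, 2, 8 and 7 calls at 72 hpf, by stage in GFP+, by stage in GFP− and for the interaction. The other genes gave 25 higher and 1 lower, 17 lower, 31 higher and 28. Of all 23758 genes tested in that setting, 1711 were called higher and 2685 lower at 72 hpf, and 3989 lower by stage in GFP+. By stage in GFP− cells 5177 were called higher, and 1702 lower for the interaction.

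With 1 library left out, the number of the 8 genes called ranged from 3 to 8 at 72 hpf, 0 to 2 by stage in GFP+, 3 to 8 by stage in GFP− and 0 to 5 for the interaction. Of the other genes it ranged from 0 to 1 lower at 48 hpf, 12 to 23 higher and 1 to 2 lower at 72 hpf, 4 to 15 lower by stage in GFP+, 15 to 27 higher by stage in GFP− and 3 to 21 for the interaction. Over all genes the number called ranged from 764 to 1701 higher at 72 hpf and 1302 to 4069 lower by stage in GFP+. It ranged from 4618 to 6361 higher by stage in GFP− and 637 to 2048 lower for the interaction. Some small differences that were not called in the reported fit changed sign. Between stages in GFP− cells, *ttn.2* was at -0.0614 with total counts and -0.26 to 1.27 with 1 library left out (1.56 without both), *myh7* at -1.003 to 1.06 (1.33), *myh7l* at -0.66 to 2.02 (2.29, and 0.34 with the block), *ttn.1* at -0.0088 to 2.09 (2.31) and *unc45b* at -0.083 to 0.55 (0.56). Between stages in GFP+ cells *hspb7* was at -0.11 with total counts and -0.0076 to 0.35. At 72 hpf *nexn* was at -0.71 to 0.29 and *tpm2* at -0.43 to 0.0562. The cause of these changes was not tested. Comparing levels per coding length and searching promoters for motifs were not run, because no sequence table was used here. With 3 libraries per group, and 1 to 21 counts of *myh6* per GFP− library at 48 hpf, changes near 1 on the log2 scale are poorly resolved.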
